A study of Homo sapiens with 4 samples.

Results

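MSX and DLX genes encode homeodomain transcription factors, and GATA3 binding around 8 of them was mapped in H1 human embryonic stem cells (hESCs). The genes were MSX1, MSX2 and DLX1 to DLX6, taken by name from 20033 protein-coding genes. They were chosen with earlier results of these data known. For each, GATA3 ChIP-seq peak positions were collected within 200 kb of the 5′ end of the gene in hg38, or with the gene as the name the authors had given the peak. H1 is an established pluripotent line, and the cells had been kept in mTeSR1 medium with BMP4 at 50 ng/ml for 6 h. There were 4 samples, 2 GATA3 ChIP replicates and 2 input chromatin samples, all treated with BMP4. The peak list of each ChIP replicate was analysed. An untreated GATA3 ChIP was not analysed here, so no value below is a response to BMP4. RNA was not measured in these samples, so a position near a gene says nothing about whether the gene was on.

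BMP signalling is a classic inducer of MSX and DLX genes in the embryo. MSX proteins mostly repress transcription, while DLX proteins mostly activate it, and both families act in the non-neural ectoderm, the border of the neural plate, the neural crest, teeth and limbs. DLX3, DLX4 and DLX5 are also known in the placenta, where GATA3 is a regulator of trophoblast. The DLX genes lie in convergent pairs, and in vertebrates the sequence between the genes of a pair is known to hold enhancers that both can use.

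The 8 genes formed 5 loci. MSX1 (chromosome 4, 4859665 to 4863936, plus strand) and MSX2 (chromosome 5, 174724582 to 174730896, plus strand) stood alone. DLX1 (172084740 to 172089677, plus strand) faced DLX2 (172099438 to 172102900, minus strand) across 9.76 kb of chromosome 2. DLX4 (49968588 to 49974959, plus strand) faced DLX3 (49990005 to 49995224, minus strand) across 15.0 kb of chromosome 17. DLX6 (97005553 to 97011040, plus strand) faced DLX5 (97020396 to 97024950, minus strand) across 9.36 kb of chromosome 7. The genes of a pair shared nearly the same 200 kb window, so the 6 DLX genes are not 6 independent observations.

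In all, 16 of the 18456 chromosomal positions of replicate 1 and 13 of the 12782 of replicate 2 fell within 200 kb of these genes. Positions of the replicates that lay within 100 bp of each other were joined into a shared region. There were 7 shared regions at these loci, of 9145 in the genome. All positions that carried a member's name were within the 200 kb windows.

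Sequences of 6 of the 7 shared regions are shown first, because these regions are the binding that both replicates found. In each sequence the 200 bp around the centre of the region are given on the plus strand of hg38, and capitals mark a GATA hexamer. The hexamers searched were AGATAA, then AGATAG with G as its last base, and with T as the first base TGATAA and, last, TGATAG, each on either strand. A hexamer on the minus strand appears as its reverse complement, so that TTATCT stands for the first of these. Only 30 bases are shown for the region upstream of DLX1, which lies in the 3′ untranslated part of METAP1D.
DLX1 upstream region, chr2:172082252-172082281: tagcattgtatcTTATCTgcaaatcagttt
DLX2 upstream region, chr2:172131922-172132121: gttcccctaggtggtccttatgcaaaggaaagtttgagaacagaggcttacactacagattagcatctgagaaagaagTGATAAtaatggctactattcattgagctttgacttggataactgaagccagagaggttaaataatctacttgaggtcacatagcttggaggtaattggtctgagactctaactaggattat
Region between DLX4 and DLX3, chr17:49976264-49976463: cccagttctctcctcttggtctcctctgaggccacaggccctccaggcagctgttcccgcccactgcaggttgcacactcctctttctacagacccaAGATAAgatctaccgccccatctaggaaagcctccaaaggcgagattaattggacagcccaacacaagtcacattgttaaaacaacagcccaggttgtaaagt
Region in KAT7, chr17:49816067-49816266: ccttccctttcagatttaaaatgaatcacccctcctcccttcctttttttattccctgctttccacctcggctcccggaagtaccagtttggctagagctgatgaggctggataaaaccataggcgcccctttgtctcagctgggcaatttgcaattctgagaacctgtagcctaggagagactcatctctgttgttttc
Region between DLX6 and DLX5, chr7:97017391-97017590: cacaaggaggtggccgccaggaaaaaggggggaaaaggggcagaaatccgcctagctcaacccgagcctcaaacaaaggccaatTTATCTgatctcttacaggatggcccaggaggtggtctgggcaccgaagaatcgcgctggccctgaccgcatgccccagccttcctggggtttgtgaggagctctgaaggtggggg
Region downstream of MSX2, chr5:174876444-174876643: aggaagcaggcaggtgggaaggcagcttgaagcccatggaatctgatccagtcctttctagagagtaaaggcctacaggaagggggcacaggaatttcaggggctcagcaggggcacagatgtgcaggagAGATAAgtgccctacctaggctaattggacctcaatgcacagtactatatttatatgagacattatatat

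The loci were compared by the number of positions and of shared regions. MSX1 had 0 positions in replicate 1 and 0 in replicate 2. MSX2 had 2 in each replicate and 1 shared region. Each DLX pair had 2 shared regions, and all 6 DLX genes counted 2. Of the 8 genes, 7 had at least 1 shared region within 200 kb, against 67.7% of all protein-coding genes. At least 2 shared regions were found at 6 of the 8, all of them DLX genes, against 35.2% of all genes. The median gene had 1 shared region, 2 positions of replicate 1 and 1 position of replicate 2 in such a window.

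**Figure D1:**
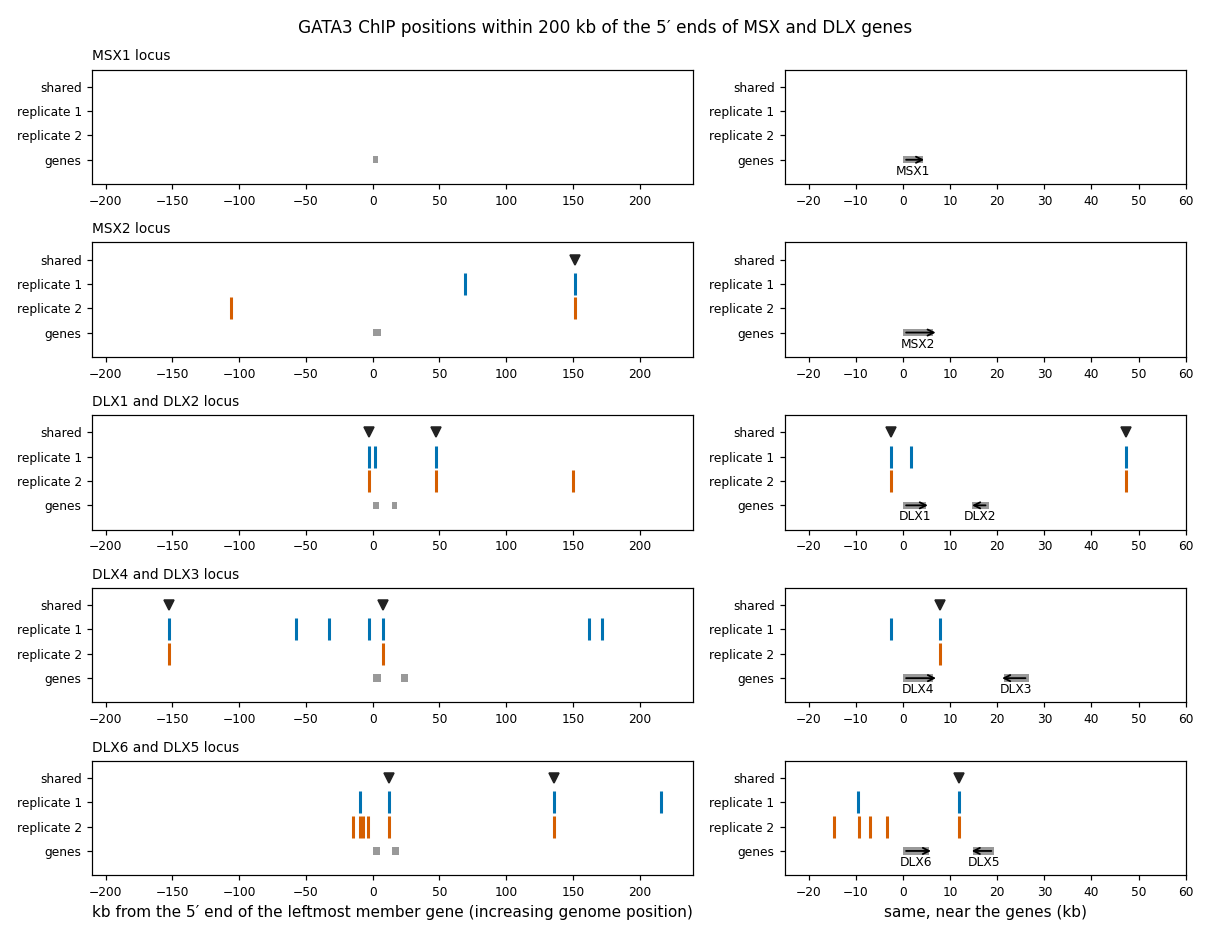
GATA3 ChIP positions of replicate 1 and replicate 2 and shared regions (triangles) at the 5 loci, by distance in kb from the 5′ end of the leftmost gene, over the whole 200 kb windows (left) and near the genes (right). Grey bars are gene bodies and arrows the direction of transcription. MSX1 has 0 positions, and each DLX pair has 2 shared regions, of which at least 1 lies within 7.78 kb of the 5′ end of a DLX gene.

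Distances to the nearest shared region are given as a description, with no test, since there were 2 MSX genes and 3 DLX loci. The nearest shared region was 2.46 kb from the 5′ end of DLX1, 7.46 kb from DLX5, 7.78 kb from DLX4, 11.9 kb from DLX6, 18.9 kb from DLX3 and 20.6 kb from DLX2. It was 152.0 kb away for MSX2 and 303.6 kb away for MSX1. Within 50 kb, all 6 DLX genes and neither MSX gene had a shared region, against 27.2% of all genes. For DLX4 and DLX3 this rests on the region between them, whose replicate positions were 67 bp apart. With a limit of 50 bp between replicates, the only shared region left within 200 kb of this pair was 152.4 kb from DLX4 and 179.1 kb from DLX3, no nearer than that of MSX2. Within 10 kb there were 3, DLX1, DLX4 and DLX5, 1 from each pair, against 8.69% of all genes, both at 100 bp. With the limit of 50 bp DLX4 dropped out. With 250 bp, positions 9.59 and 9.41 kb upstream of DLX6 joined, so that DLX6 too had a region within 10 kb. No member had a shared region within 1 kb, as 2.42% of all genes did. The replicate positions of the regions shared at 100 bp differed by at most 69 bp, which is less than any step in the order of distances. The order did depend on the start used for the gene. From the start of the canonical transcript, DLX4 (7.17 kb) came before DLX5 (7.34 kb). The nearest position of a single replicate was an unshared one, closer than the shared region, for DLX1, DLX2, DLX4 and MSX2 in replicate 1, for DLX6 in both and for MSX2 and MSX1 in replicate 2.

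Per megabase of window, the 3 DLX loci held 4.75 shared regions (95% exact Poisson interval 1.74 to 10.3) and the 2 MSX loci 1.25 (0.0316 to 6.96). The chromosomes as a whole held 2.96. The intervals of the families overlapped and both included the genome's value. Overlap of intervals is not a test, so no conclusion on a difference between MSX and DLX loci is drawn. These intervals cover counting error over positions only, and no test between the families was made, because the loci are few and neighbouring positions are not independent.

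**Figure D2:**
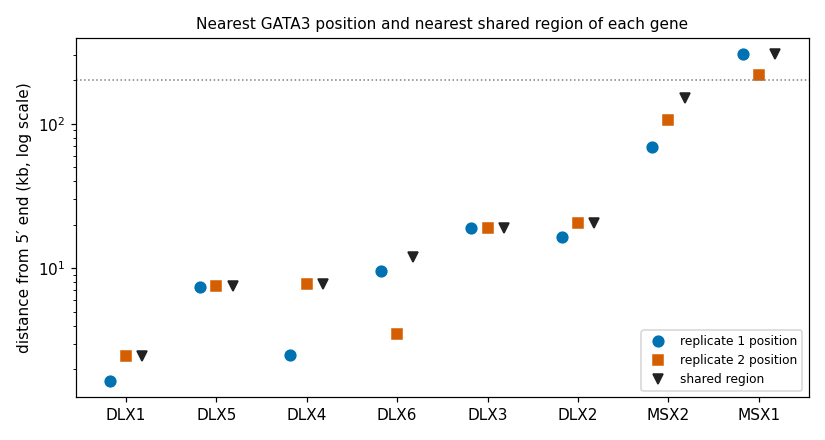
Distance in kb (log scale) from the 5′ end of each gene to the nearest position of replicate 1, the nearest position of replicate 2 and the nearest shared region, with the genes ordered by the last. The dotted line marks 200 kb. The DLX genes lie between 2.46 and 20.6 kb from a shared region, and MSX2 and MSX1 at 152.0 and 303.6 kb.

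MSX1, a gene of tooth and palate development, sat in a long stretch without any position. In replicate 1 the nearest positions were at 4556107 and 5365872, a stretch of 809.8 kb. In replicate 2 they were at 4642603 and 5554470, a stretch of 911.9 kb. Of all protein-coding genes, 11.2% lay in as long a stretch in replicate 1 and 17.8% in replicate 2. The 200 kb window was empty in both replicates for 11.2% of all genes, MSX1 and 2239 others. MSX1 had 2 other coding 5′ ends in its window. The nearest shared region, at 4556107 in replicate 1 and 4556060 in replicate 2, was 13.7 kb from the 5′ end of STX18, which encodes a syntaxin.

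MSX2, a gene of skull and limb development, was the only coding 5′ end in its window. Its shared region lay 152.0 kb downstream of the 5′ end, between genes, and both replicates gave the same base, 174876543. The other position of replicate 1, 174793943, was 69.4 kb downstream, 82600 bp from any position of replicate 2. The other position of replicate 2, 174618780, was 105.8 kb upstream, 98116 bp from any position of replicate 1. Both lay in introns of long noncoding RNA genes. Thus 1 of the 2 positions at MSX2 in each replicate had no partner. The authors' name for the shared region was NIFKP2, a pseudogene.

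Just outside the limit, MSX2 had a further shared region 203.9 kb upstream, with positions 174520664 and 174520658 that were 6 bp apart. There were 2 more at 270.7 and 312.9 kb upstream. MSX2 was the nearest coding gene to all 3 of these and to the region downstream. The position closest to the limit from inside was that of replicate 1 at 97221699, 196.7 kb from DLX5, with no partner. For MSX1, the closest from outside was the position of replicate 2 at 4642603, 217.1 kb upstream.

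DLX1 and DLX2, which act in forebrain interneurons and in the branchial arches, had positions on each side of the pair and none between the genes. The DLX1 upstream region was 2.46 kb upstream of DLX1, at 172082277 in replicate 1 and 172082280 in replicate 2, 3 bp apart. It overlapped the 3′ untranslated part of METAP1D, a mitochondrial methionine aminopeptidase gene, and an exon of a long noncoding RNA gene. The authors' name for it was DLX1 in both files. Because the annotated 5′ end of DLX1 lies before that of its canonical transcript (172085507), the signed distance from the latter was -3.23 kb, where minus means upstream.

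The DLX2 upstream region was 29.1 kb upstream of DLX2, between genes, at 172132020 and 172132022, 2 bp apart. The authors named it DLX2-AS1, an antisense transcript of DLX2, in both files. Each replicate had 1 more position. That of replicate 1, at 172086390, was in intron 1 of DLX1, 4110 bp from any position of replicate 2, and was also named DLX1. That of replicate 2, at 172235129, was 132.2 kb upstream of DLX2.

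DLX4 and DLX3, the pair with known roles in placenta and skin, had a shared region between them. It lay 7.78 kb downstream of the DLX4 5′ end and 18.9 kb downstream of the DLX3 5′ end, at 49976330 and 49976397, 67 bp apart, and was named DLX4 in both files. With a limit of 50 bp between replicates it did not count as shared, which left 1 region at this pair. The other shared region lay in intron 8 of KAT7, a histone acetyltransferase gene, at 49816152 and 49816180, and was 152.4 kb upstream of DLX4 and named RP11-304F15.7 by the authors. FAM117A was the coding gene with the nearest 5′ end to it, at 27.0 kb.

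This pair had the most uneven replicates, with 7 positions in replicate 1 and 2 in replicate 2, both of the latter shared. The 5 unshared positions of replicate 1 included 1 at 49966088, 2.5 kb upstream of DLX4 and inside RNU6-1313P, a U6 small nuclear RNA gene. Further upstream of DLX4 were those at 49910801 (57.8 kb) and 49935711 (32.9 kb), both between genes. On the DLX3 side, the position at 50130715 was 0.555 kb from the 5′ end of SAMD14, and the one at 50140375.5 was in intron 4 of PPP1R9B. The windows also held many other genes, with 9 other coding 5′ ends within 200 kb of DLX4 and 7 within 200 kb of DLX3.

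DLX6 and DLX5, which pattern limbs, jaws and the inner ear, also had a shared region between them. It lay 7.46 kb downstream of the DLX5 5′ end and 11.9 kb downstream of that of DLX6, at 97017496 and 97017484, 12 bp apart. Both files named it Evf-2_5p, after the noncoding RNA Evf2 of this locus. The other shared region was in intron 1 of SDHAF3, an assembly factor of succinate dehydrogenase, at 97141315 and 97141246, 69 bp apart and 116.3 kb upstream of DLX5, and was named HMGB3P21. It too did not count as shared with a limit of 50 bp. Its nearest coding 5′ end was that of SDHAF3, at 23.6 kb.

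Here the extra positions were those of replicate 2, which had 6 against 4 in replicate 1. Upstream of DLX6, replicate 2 had positions 14.7, 9.41, 7.07 and 3.47 kb from the 5′ end, all in intron 1 of DLX6-AS1 and all named DLX6. Replicate 1 had 1 in that stretch, 9.59 kb upstream. It was 179 bp from the closest one of replicate 2, so the pair counted as unshared at 100 bp and as shared at 250 bp.

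That pair flanked a tract of pyrimidines, and both windows are shown for it, with no GATA hexamer in either.
Position 96995960 of replicate 1, chr7:96995861-96996060: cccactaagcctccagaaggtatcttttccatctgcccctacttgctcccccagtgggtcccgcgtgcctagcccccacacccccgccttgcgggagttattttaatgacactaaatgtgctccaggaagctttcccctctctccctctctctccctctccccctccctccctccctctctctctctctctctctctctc
Position 96996139 of replicate 2, chr7:96996040-96996239: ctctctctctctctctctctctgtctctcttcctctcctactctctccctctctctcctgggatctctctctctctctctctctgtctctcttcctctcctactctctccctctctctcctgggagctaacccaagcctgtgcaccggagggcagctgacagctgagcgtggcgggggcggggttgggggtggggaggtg
The longest run of C and T only, or of A and G only, was 70 bases in the first window and 22 bases in the second, where it was the end of the same tract. Across all positions of replicate 1, 0.103% had a run as long as 70 bases, and the median was 10. A run of 33 bases was in the window of the replicate 2 position 14.7 kb upstream of DLX6, as long as in 0.782% of its positions. In the windows of the 14 shared positions the longest run was between 6 and 22 bases. The part of such tracts in read mapping or peak calling was not tested.

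Taken over the 3 DLX loci, 6 of 14 positions of replicate 1 (42.9%, 95% exact Clopper-Pearson interval 17.7 to 71.1) and 6 of 11 of replicate 2 (54.5%, 23.4 to 83.3) were shared. At the MSX loci the counts were 1 of 2 in each replicate (50.0%, 1.26 to 98.7). On all chromosomes 49.6% of replicate 1 and 71.5% of replicate 2 positions were shared, each inside the intervals of its own replicate. The replicate positions of a shared region were 0, 2, 3, 12, 28, 67 and 69 bp apart at these genes, with a median of 12 bp, against 23 bp over all shared regions. Pairs within 3 bp, of which there were 3 here, made up 8.31% of all linked pairs.

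Of the 7 shared regions, 6 held a GATA hexamer in 200 bp (85.7%, 95% exact interval 42.1 to 99.6), against 82.0% of all shared regions. The exception was the region in KAT7, which held the bare letters GATA once. The hexamer AGATAA was in 5 of the 7, against 51.6% of all shared regions. The region between DLX4 and DLX3 had its AGATAA at the very centre, 0 bp away. In the other regions shown with a hexamer, it was 12, 12.5, 18.5 and 33.5 bp from the centre, the last being the region downstream of MSX2.

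**Figure D3:**
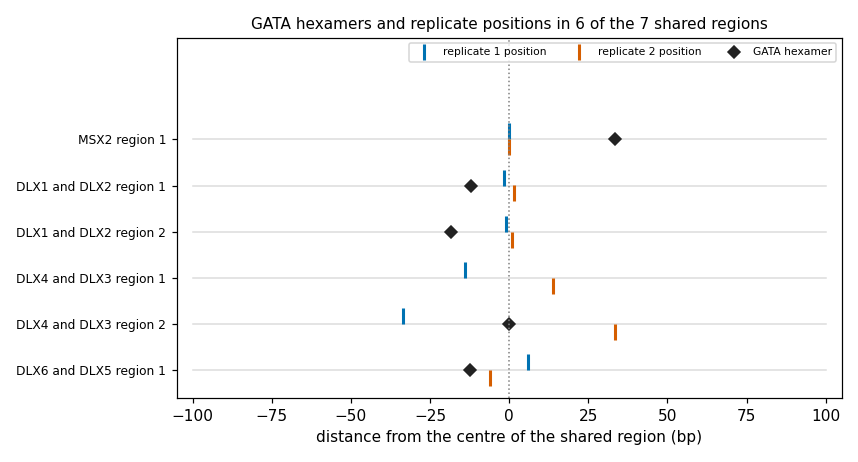
Distance in bp from the centre of 6 of the 7 shared regions to their GATA hexamers (diamonds) and to the positions of replicate 1 and replicate 2 (ticks), in windows of 200 bp. In 5 of these a hexamer lies within 33.5 bp of the centre, and the region in KAT7 (DLX4 and DLX3 region 1) has 0.

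Unshared positions held the hexamer in 3 of 9 windows in replicate 1 (33.3%, 95% exact interval 7.49 to 70.1) and in 3 of 6 in replicate 2 (50.0%, 11.8 to 88.2). Across the genome, 72.9% of unshared positions of replicate 1 and 67.0% of those of replicate 2 held it. The former value lay above the interval at these loci and the latter inside it, with windows that are few and partly neighbours. Of the 4 positions upstream of DLX6 in replicate 2, 1 held a hexamer, the one 3.47 kb from the gene. The position in intron 1 of DLX1 and that in RNU6-1313P held 0.

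Some further motifs were searched on both strands in the same windows. The SMAD element GTCTG was in 3 of the 7 shared regions, 1 at each DLX pair, against 36.1% of all shared regions. These were the DLX2 upstream region and the regions between the genes of the other pairs. GGCGCC, a SMAD1/5 motif, was in 1, the region in KAT7, against 1.96% of all. The homeodomain core TAATTA and the POU octamer ATGCAAAT were in 0 of the 7, against 5.47% and 5.10% of all. Of the motifs searched, each GATA hexamer contains GATA, and no other motif contains another. The regions held between 39.5% and 59.5% G and C, with a median of 44% over all shared regions. The highest, between DLX6 and DLX5, was reached by 4.23% of all shared regions.

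**Figure D4:**
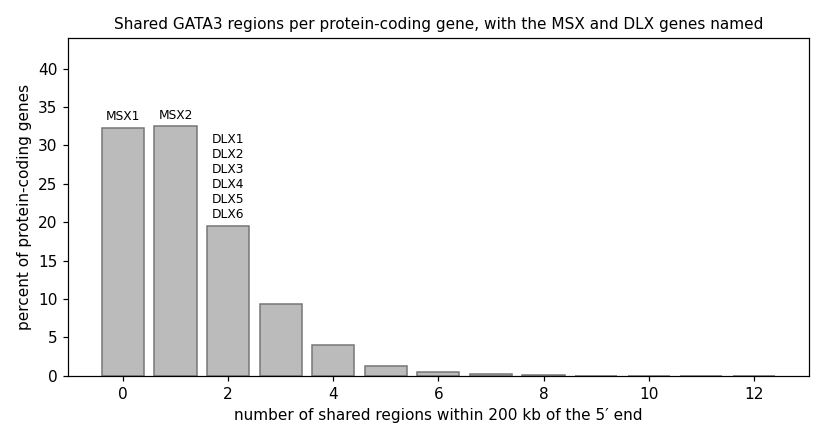
Percent of the 20033 protein-coding genes with each number of shared regions within 200 kb of the 5′ end, with the MSX and DLX genes named above their bar. MSX1 falls with the 32.3% of genes that had 0, MSX2 with the 32.5% that had 1 and the 6 DLX genes with the 19.5% that had 2.

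The same counts in both replicates and of shared regions as DLX5 were found at 1 other protein-coding gene, SKOR2, and the counts of DLX6 at 2, B3GNT7 and GAP43. These 3 were named after their values were seen. The counts of DLX3 and DLX4 recurred at 23 genes each, those of DLX1 and DLX2 at 333, those of MSX2 at 629 and those of MSX1 at 2239. For DLX1 to DLX4, 1 of these genes was the partner in the pair, with nearly the same window.

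Other homeobox genes of the NKL class, to which MSX and DLX belong, were counted in the same way. Of 40, 33 had at least 1 shared region within 200 kb (82.5%), 19 had at least 2 and 19 had at least 1 within 50 kb (47.5%), with a median of 1. DBX1, a gene of spinal cord interneurons, had the most with 10, followed by BARHL2 with 6, and EN1, NKX2-5 and LBX2 were the nearest to a region of those with 3. EN1 had a shared region 0.251 kb downstream of its 5′ end, nearer than any member. Like MSX1, 2 of the 40 had no position of either replicate in the window.

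A list of 16 transcription factors of the non-neural ectoderm and the neural plate border, tissues in which MSX and DLX genes are expressed, had a median of 3 shared regions. At least 1 was found at 15 of the 16, and 10 had at least 1 within 50 kb (62.5%). GATA2, a relative of GATA3, had 11, TFAP2A, an AP-2 factor, had 9 and EYA1, a transcription cofactor in placodes, had 7. The 8 MSX and DLX genes had a median of 2. Both lists were chosen with earlier results of these data known, so they are no independent comparison.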

How the data were processed

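GATA3 ChIP-seq positions of 2 replicates were analysed. Per the study's methods and the labels, reads were adapter-trimmed (cutadapt) and aligned to hg38 (bowtie) by the authors, who dropped duplicates (Picard), multiply mapped reads and reads in blacklisted regions. Peak calling (MACS2) was done separately for the replicates, each with its input as control. The files as deposited give each peak as 1 position with a gene name. They hold neither a width, a score, a fold nor a q-value, so depth and peak strength cannot be read from them. At these loci the position of replicate 1 at 50140375.5 falls between bases. The number of positions differs from the number of peaks the study's methods state. How a peak became 1 position, and whether bases count from 0 or 1, is not given in the sources used here, so positions are printed as deposited with an uncertainty of at least 1 bp.

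Genes were the protein-coding genes of GENCODE release 44 on chromosomes 1 to 22, X and Y, and the 5′ end was that of the annotated gene. Replicate positions within 100 bp were joined, and a region's centre was the mean of the replicates. Windows of 200 bp were read from hg38, and the sequence of the shared region in SDHAF3 is not reported here. Exact Clopper-Pearson and Poisson intervals at 95% cover counting error only. Positions outside these chromosomes were left out. Counting was tested on simulated data. Python 3.11.15, numpy 2.4.6, scipy 1.17.1, pysam 0.24.0 and matplotlib 3.10.9 were used.

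The members and gene lists were chosen with earlier results of these data known. Named genes are the 8 members, the coding genes nearest to their shared regions, the authors' names for these positions, and the 5 and 3 genes with most shared regions in the homeobox and ectoderm lists (ties by distance). Outside this rule, chosen after their values were seen, are the genes that overlap a position (METAP1D, KAT7, PPP1R9B, DLX6-AS1), the gene nearest to the MSX1 region beyond 200 kb (STX18) and the genes with the same counts as DLX5 or DLX6 (SKOR2, B3GNT7, GAP43). Alternatives changed the distance between replicates, the distance from the gene, the start of the gene and the motif window, and used each replicate alone. The labels do not say whether the replicates came from separate cultures, while the study's methods call them biological replicates.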

Additional observations from a re-analysis of the deposited data

How the results depend on the processing

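No paired analysis was possible because no groups were tested against each other, and for the inputs no processed file was among those used. A stricter peak threshold was not run, since the positions carry no score. Of 86 alternatives, 58 stayed within 1.5 times the count or within the interval or spread of the value, 23 moved and 5 changed from upstream to downstream or back.

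With positions joined within 50 bp, the DLX4 and DLX3 locus and the DLX6 and DLX5 locus fell from 2 shared regions to 1 each. In the former it was the region between the genes that was lost, and in the latter the one in SDHAF3. Within 50 kb or 100 kb, MSX2 had 0 regions and these 2 loci had 1 each. Within 500 kb there were 2 at MSX1, 4 at MSX2, 6 at DLX1 and DLX2, 5 at DLX6 and DLX5 and still 2 at DLX4 and DLX3. At this distance MSX1 thus equalled and MSX2 exceeded the count of a DLX pair. No count over all genes at this distance is given here, and the chromosomes as a whole held 2.96 shared regions per megabase. The counts at 500 kb are therefore a description only. Leaving out 1 replicate, the positions of the other numbered 2 at MSX2, 2 to 7 at DLX4 and DLX3 and 4 to 6 at DLX6 and DLX5. The nearest position without replicate 1 was -105.802 kb from MSX2 (minus means upstream), -2.46 kb from DLX1, 7.809 kb from DLX4 and -3.473 kb from DLX6. Without replicate 2 it was 69.361 kb from MSX2, 1.65 kb from DLX1, -2.5 kb from DLX4 and -9.593 kb from DLX6. The cause of these differences between replicates was not tested. The share of shared regions with a hexamer was 85.7% in windows of 100 and 400 bp, against 71.2% and 88.4% of all shared regions. Over single replicates, 56.25% of positions in replicate 1 and 69.2% in replicate 2 held a hexamer. Across the genome it was in 81.7% of shared positions in each replicate. Among unshared positions of the genome it was in 72.9% in replicate 1 and 67.0% in replicate 2. Members with a shared region numbered 7 of 8 within 200 kb, against 67.7% of all genes, and 6 within 50 kb, against 27.2%. They numbered 6 within 100 kb and 8 within 500 kb, where no share of all genes is given here. In each replicate alone, 7 members had a position within 200 kb, also without a share of all genes.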
